A study of Mus musculus with 14 samples.

Results

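Nuclear pore genes were examined as 31 genes of the pore and of the transport machinery that passes through it, each taken by its symbol in the RefSeq annotation of the mouse genome (mm10). All 31 were found among 21883 protein-coding genes, and 54 of 57289 consensus peaks overlapped a gene span or lay within 1 kb of its ends. Kpnb1, Ran and Xpo1 are soluble transport factors and not structural nucleoporins, so the set is wider than the pore itself.

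The nuclear pore complex is the channel in the nuclear envelope through which proteins and RNA pass. Y-shaped scaffold complexes form its outer rings, an inner ring lines the membrane, and transmembrane nucleoporins anchor it. Nucleoporins rich in phenylalanine and glycine fill the channel, filaments reach into the cytoplasm, and a basket faces the chromatin. Cargo is carried by importins and exportins, and the GTPase Ran gives the transport its direction.

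Chromatin accessibility had been measured by bulk ATAC-seq, in which the transposase Tn5 cuts open DNA, in mouse long-term haematopoietic stem cells from C57BL/6 bone marrow. Cells were sorted through the gate Lin- Sca1+ cKit+ CD34- Flt3-. The aged Ri group (n = 5) came from mice over 80 weeks old and received the RhoA inhibitor Rhosin (Ri) at 100 µM, the aged group (n = 5) came from mice of that age without it, and the young group (n = 4) from mice of 10 to 16 weeks without it. Cells of all 3 groups were held ex vivo for 16 h at 37 °C in 3% oxygen, so none was profiled fresh from the marrow. The labels call the replicates biological but do not give the number of animals behind each library, and RhoA signalling was tested with 1 compound at 1 dose.

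Depth ran between 765533 counts in peaks, in young 3, and 3176246 in aged Ri 3, and each of the 3 sequencing batches named in the labels held all 3 groups. Of all counts, 43.4 ± 4.96% (SD, n = 5) fell at gene starts in aged Ri libraries, 43.5 ± 4.81% (SD, n = 5) in aged libraries and 50.1 ± 2.19% (SD, n = 4) in young libraries. Aged 5, at 51.2%, lay inside the young range of 48.1 to 52.4% and stood apart from the other aged libraries, which ran from 39.3 to 45.0%. Of 8 stem cell markers, 7 had a peak at the start (Slamf1 did not), with a median of 59.4 CPM, the TMM-scaled count relative to library size. Start peaks were present for 2 of 5 B cell, 1 of 5 T cell, 2 of 5 erythroid, 3 of 5 myeloid and 5 of 5 megakaryocyte markers; no peak lay at the starts of Cd3e, Cd3d, Cd3g, Cd8a, Epor, Alas2, Hba-a1, Elane or Ctsg. The summed megakaryocyte markers ran from 318 to 414 CPM in aged Ri libraries, from 307 to 525 CPM in aged libraries and from 167 to 318 CPM in young libraries. The B cell genes with a start peak, Cd79a and Cd79b, summed to between 3.17 and 41.7 CPM in aged Ri libraries, 12.7 and 34.3 CPM in aged libraries and 12.0 and 101 CPM in young libraries. Their median log2 value was -0.97 in aged Ri over young and -0.83 in aged over young cells, with 0 called. Of the 7 stem cell starts, 1 was called in aged against young (median 0.34) and 2 in aged Ri against young (0.22). Of the 5 megakaryocyte starts, 2 (0.56) and 1 (0.46) were. Among all starts 2.13% and 5.31% were called. The erythroid, myeloid and T cell markers had 0 called. Their log2 medians follow for aged over young, aged Ri over aged and aged Ri over young cells in that order. They were 0.31, -0.02 and 0.29 for erythroid and 0.08, -0.68 and -0.21 for myeloid markers. The 1 T cell marker with a start peak was at -0.96, 0.18 and -0.78. The T cell gene Lck ran from 0 to 24.4 CPM in aged Ri libraries, from 5.02 to 9.69 CPM in aged libraries and from 9.67 to 18.1 CPM in young libraries. The part of these markers in the results below was not tested.

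Of the 31 loci, 19 held 1 peak, 9 held 2, Nup93 and Nup214 held 4 each, and Nup210 held 9. For 30 members a peak overlapped the 1 kb either side of the gene start, giving 31 start peaks because Kpnb1 had 2. The remaining 23 peaks lay away from the starts. Nup160, a Y complex scaffold, had no peak within 1 kb of its start, and its only peak (2:90678940-90679639) began 1725 bp inside the gene span. For 26 members the start was placed by RefSeq position and strand; for Nup35, Nup43, Nup85 and Seh1l the annotated end with more counts was used. Among the 27 start peaks placed by strand, centres lay at -358 to 735 bp from the start (negative is upstream), with a median of -27 bp. The start peaks of Nup37, Nup88, Nup98, Nup188 and Tpr also served a neighbouring gene (Parpbp, Rpain, Pgap2, Dolk and Odr4 in that order), so their counts cannot be assigned to 1 gene; this was 16.7% of the members and 17.8% of all gene starts.

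The 300 bases around the start (250 before, 50 after) are shown for 8 members, from RefSeq on GRCm38.p6, 5′ to 3′ on the gene's strand. The first 5 genes have a called peak in at least 1 comparison, and Nup188, Nup205, Nup88 and Nup50 are the members that carry the YY1 motif. Capitals mark matches on either strand to the ETS (CCGGAAG), SP/KLF (GGGCGG), NF-Y (CCAAT), NRF1, YY1 or CRE (TGACGTCA) motif. The last capital block of Nup188, Nup205, Nup88 and Nup50 is the YY1 motif as searched, and the second capital block of Ran is an NRF1 match. Capital blocks may hold overlapping matches, as the run of SP/KLF matches in Nup88 does.
Nup210 (6:91116777-91117076, minus strand): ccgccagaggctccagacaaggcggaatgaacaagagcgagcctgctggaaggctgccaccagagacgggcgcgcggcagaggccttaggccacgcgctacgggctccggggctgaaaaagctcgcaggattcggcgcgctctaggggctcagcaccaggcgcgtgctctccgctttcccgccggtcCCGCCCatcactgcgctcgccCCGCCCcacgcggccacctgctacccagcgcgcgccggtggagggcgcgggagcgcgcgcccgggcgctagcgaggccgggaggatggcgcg
Rae1 (2:172999867-173000166, plus strand): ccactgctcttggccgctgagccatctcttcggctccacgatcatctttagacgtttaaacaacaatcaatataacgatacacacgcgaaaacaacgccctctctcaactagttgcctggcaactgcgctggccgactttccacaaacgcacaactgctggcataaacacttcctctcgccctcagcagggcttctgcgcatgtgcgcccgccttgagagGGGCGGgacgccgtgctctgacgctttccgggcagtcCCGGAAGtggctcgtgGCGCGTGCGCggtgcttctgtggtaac
Nup107 (10:117792656-117792955, minus strand): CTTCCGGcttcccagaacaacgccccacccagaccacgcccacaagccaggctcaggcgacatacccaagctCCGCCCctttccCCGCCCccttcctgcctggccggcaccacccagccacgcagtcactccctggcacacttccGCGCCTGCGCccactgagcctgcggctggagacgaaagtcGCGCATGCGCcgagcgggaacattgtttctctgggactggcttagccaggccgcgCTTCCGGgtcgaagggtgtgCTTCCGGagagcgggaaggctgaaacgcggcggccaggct
Ran (5:129019906-129020205, plus strand): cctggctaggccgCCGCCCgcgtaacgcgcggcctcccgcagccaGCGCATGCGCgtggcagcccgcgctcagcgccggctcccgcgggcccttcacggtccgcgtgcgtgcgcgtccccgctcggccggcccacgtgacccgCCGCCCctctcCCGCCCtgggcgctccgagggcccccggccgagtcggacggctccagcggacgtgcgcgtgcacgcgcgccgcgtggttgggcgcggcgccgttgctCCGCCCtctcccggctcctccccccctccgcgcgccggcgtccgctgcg
Nup188 (2:30286166-30286465, plus strand): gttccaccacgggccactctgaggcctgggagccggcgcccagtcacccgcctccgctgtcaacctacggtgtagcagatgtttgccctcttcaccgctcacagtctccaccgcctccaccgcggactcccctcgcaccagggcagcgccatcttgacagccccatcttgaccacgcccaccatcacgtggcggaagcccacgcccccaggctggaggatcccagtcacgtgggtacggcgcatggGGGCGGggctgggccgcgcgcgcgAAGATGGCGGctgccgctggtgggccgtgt
Nup205 (6:35177366-35177665, plus strand): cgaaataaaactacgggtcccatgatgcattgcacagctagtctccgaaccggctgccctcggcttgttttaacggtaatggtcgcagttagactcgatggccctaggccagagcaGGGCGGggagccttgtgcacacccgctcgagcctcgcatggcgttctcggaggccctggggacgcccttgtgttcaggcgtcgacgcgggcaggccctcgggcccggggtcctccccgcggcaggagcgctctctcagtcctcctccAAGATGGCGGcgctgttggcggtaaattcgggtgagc
Nup88 (11:70969924-70970223, minus strand): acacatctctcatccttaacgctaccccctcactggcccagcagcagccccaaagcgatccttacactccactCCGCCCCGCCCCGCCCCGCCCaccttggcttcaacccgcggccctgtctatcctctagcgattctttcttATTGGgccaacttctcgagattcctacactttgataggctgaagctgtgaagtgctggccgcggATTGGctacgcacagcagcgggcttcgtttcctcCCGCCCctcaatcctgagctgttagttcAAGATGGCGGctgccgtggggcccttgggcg
Nup50 (15:84923178-84923477, plus strand): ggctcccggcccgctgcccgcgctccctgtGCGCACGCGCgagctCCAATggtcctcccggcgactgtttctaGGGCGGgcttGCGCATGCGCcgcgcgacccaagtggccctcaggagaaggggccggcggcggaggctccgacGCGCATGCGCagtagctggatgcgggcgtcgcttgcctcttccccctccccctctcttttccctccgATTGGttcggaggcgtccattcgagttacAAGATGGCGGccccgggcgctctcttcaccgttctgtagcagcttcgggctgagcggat

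A promoter entry existed for 27 of the 31 members. The exact YY1 motif was found in 4 of these 27 (14.8%), against 1.21% of all 21262 promoters and 2.04% of the 10777 promoters with a peak at the start. Its first base lay 9 bases before the start in Nup50 and 13, 19 and 20 bases after it in Nup205, Nup88 and Nup188, on the strand of the gene. The ETS motif was in 29.6% of member promoters (all promoters 11.6%, those with a peak 17.8%) and the SP/KLF motif in 70.4% (46.2% and 65.9%). The NRF1 motif was in 14.8% (6.38% and 10.4%), the CRE motif in 7.41%, namely Nup133 and Nup214 (2.23% and 3.33%), and the NF-Y motif in 37.0% (38.2% and 38.5%). Member promoters had a median GC content of 64.3% and a median of 28 CpG sites, against 61.3% and 21 in promoters with a peak and 56.3% and 13 in all promoters. These are letter matches, with no test and no measure of binding.

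Accessibility at the start differed more between members than between libraries of 1 member. Member means ran from 18.2 to 345 CPM. The highest library was up to 5.02-fold above the lowest at Nup188 and 4.25-fold at Nup43, and 1.54-fold at Xpo1. Over the 14 libraries the starts had a median of 86.2 CPM, against 55.6 CPM over all gene starts tested, and 19 of 30 members lay above that. CPM at starts was scaled over start counts alone, which takes out the lower share of counts at starts in both aged groups. Peaks are all 700 bp long, so levels can be set beside each other, apart from Kpnb1 with its pair of peaks. The median coefficient of variation over the 14 libraries was 20.6% for members and 23% for all starts.

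Kpnb1 and Xpo1, 2 of the 3 transport factors, had the highest starts. Kpnb1, which encodes importin beta 1, had 241, 406, 291, 310 and 327 CPM in aged Ri libraries 1 to 5, 230, 287, 291, 363 and 471 CPM in aged libraries 1 to 5 and 314, 350, 521 and 422 CPM in young libraries 1 to 4. Xpo1, the main nuclear export receptor, had 246, 377, 324, 290 and 289 CPM in aged Ri, 310, 257, 327, 330 and 322 CPM in aged and 311, 309, 355 and 285 CPM in young libraries. Tpr, the filament protein of the nuclear basket, followed with 226, 304, 300, 290 and 211 CPM in aged Ri, 254, 234, 269, 272 and 274 CPM in aged and 196, 240, 324 and 232 CPM in young libraries. All 3 genes had overlapping groups, and by mean level they stood at the 99.3, 98.9 and 97.7 percentiles of all gene starts. Nup98, a nucleoporin with glycine-leucine-phenylalanine-glycine repeats (230 ± 31.9 CPM, SD, n = 14), and Ahctf1, the chromatin-binding factor ELYS that starts pore assembly after mitosis (224 ± 39.3 CPM, SD, n = 14), came next.

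The lowest starts were all Y complex genes. Sec13, which also serves in the COPII vesicle coat, averaged 18.2 ± 3.51 CPM (SD, n = 14), Nup37 23.7 ± 6.52 CPM and Nup43 26.8 ± 8.21 CPM, at the 13.7, 19.9 and 23.2 percentiles. Subunits that share 1 complex therefore spanned most of the range, since Ahctf1, Nup107 (115 ± 35.9 CPM) and Seh1l (112 ± 28.6 CPM) lay above the median of all starts. In the full order of 30 starts, 26 of the 29 neighbouring pairs differed by less than the larger SD of the pair.

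**Figure D1:**
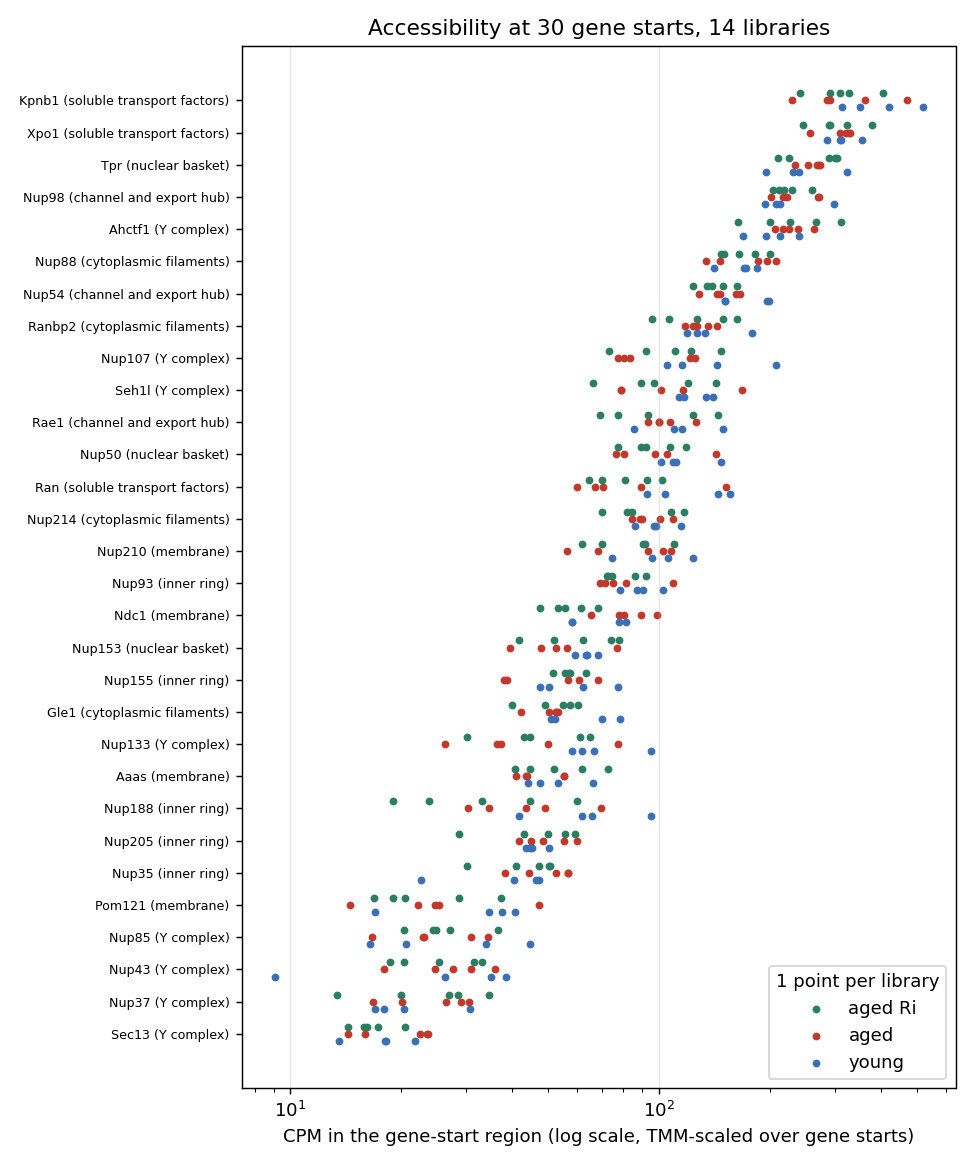
Start accessibility of 30 members in CPM on a log axis, 1 point per library, with aged Ri (green) above aged (red) and young (blue) in each row and members sorted by mean. Kpnb1 (345 CPM) and Sec13 (18.2 CPM) are the ends of the order, and aged and young libraries overlap in every row.

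Aged against young cells asked what age changes at these genes. None of the 30 starts changed at an edgeR adjusted p under 0.05, against 2.13% of all 13399 starts tested. An unadjusted p under 0.05 was found at 3 (10% of members, 17.2% of all starts). DESeq2 called 0, against 1.72% of all starts. Member starts had a median log2 fold change of -0.14, against -0.01 over all starts, with 21 of 30 below 0, against 50.8% of all starts. The 3 lowest p-values were at Ran (-0.43 ± 0.17 SE, edgeR adjusted p = 0.170), Nup107 (-0.45 ± 0.19 SE, 0.210) and Nup133 (-0.55 ± 0.25 SE, 0.265). Aged 5 was the highest aged library at Ran and Nup133 and close to the highest at Nup107. Without it all 3 passed: Ran at -0.67 (edgeR adjusted p = 0.0194), Nup107 at -0.66 (0.0302) and Nup133 at -0.91 (0.0220). That fit called 5.29% of all starts, more than the 2.13% of the main fit. With the share of counts at gene starts as a covariate, their values were 0.04, 0.04 and 0.14. That share averaged 50.1% in young, 43.5% in aged and 43.4% in aged Ri libraries. It thus goes with age, and a fit that holds both cannot tell them apart. The part of that share was not tested further. Approximate 95% intervals of 29 of the 30 starts lay within a 2-fold change either way; the exception, Nup133, reached -1.04.

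By role, the median start value for aged over young was -0.16 over 8 Y complex genes, -0.11 over 5 inner ring genes, -0.19 over 4 membrane genes and -0.10 over 3 genes of the channel and export hub. It was -0.07 over 4 genes of the cytoplasmic filaments, -0.17 over 3 basket genes and -0.24 over the 3 transport factors. Next in p at the starts were Gle1 (-0.34 ± 0.18 SE, edgeR adjusted p = 0.322), Nup188 (-0.44 ± 0.24 SE, 0.338) and Ndc1 (0.25 ± 0.16 SE, 0.428). The highest single value was 0.27 ± 0.21 SE at Nup35, an inner ring gene, and for none of the 30 starts were aged and young libraries fully apart, against 3.71% of all gene starts. In bulk libraries, fewer cells with an open site and less opening per cell cannot be told apart.

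Ran, the GTPase whose nucleotide state sets the direction of transport, had 64.7, 80.9, 70.2, 102 and 92.9 CPM at its start in aged Ri libraries, 59.8, 70.6, 66.9, 89.6 and 152 CPM in aged libraries and 104, 93.1, 156 and 145 CPM in young libraries. Of the aged libraries 4 lay below every young library and aged 5 lay inside the young range. Nup133, which tethers the Y complex in the assembling pore, had 43.1, 65.0, 30.2, 60.9 and 44.6 CPM in aged Ri, 36.3, 37.4, 26.3, 50.1 and 77.5 CPM in aged and 58.2, 61.6, 95.1 and 66.7 CPM in young libraries. Here too 4 aged libraries lay below all young ones and aged 5 did not.

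When single peaks were tested with scaling over all peaks, start peaks and peaks away from starts had medians of opposite sign. Scaling over all peaks moved the median of all gene starts by -0.25 on the log2 scale in aged over young cells. The 31 member start peaks had a median of -0.38 with 29 below 0, and none was called. All start peaks had a median of -0.24, with 9918 of 13218 below 0. The 23 peaks away from starts had a median of 0.32 with 17 above 0, against 0.09 and 24515 of 43017 for all such peaks. The 23 member peaks were shallower, with a median of 13.5 counts per library (range 7.36 to 57.1), against 92 for the member start peaks.

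Of the 54 member peaks, 4 changed at an edgeR adjusted p under 0.05, or 7.41% against 5.72% of all 56235 peaks. They were 3 that rose (5.56% of members, 4.45% of all) and 1 that fell (1.85% and 1.26%), all inside gene spans and away from the starts. The annotation used gives spans without exons, so exon and intron were not told apart. The count went to 2 without aged 3 (all peaks 2.07% called), 1 without young 1 (1.41%), 2 without young 2 (3.62%), 2 without young 3 (3.20%) and 8 without young 4 (11.5%), and to 1 with the start share as covariate (0.267%). In each of these fits the share of all peaks called moved in the same direction as the member count.

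**Figure D2:**
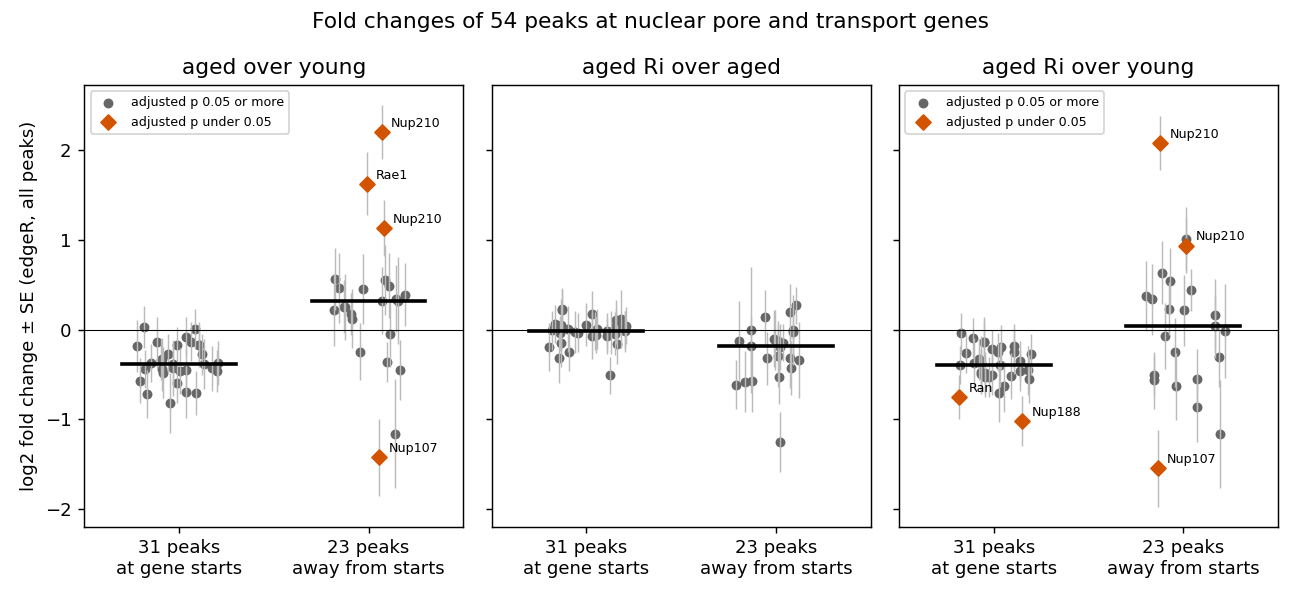
Log2 fold change ± SE (edgeR, scaled over all peaks) of the 31 start peaks and the 23 peaks away from starts, for aged over young, aged Ri over aged and aged Ri over young; black lines are medians and orange diamonds have an adjusted p under 0.05. In aged over young the medians are -0.38 at starts and 0.32 away, and the 4 called peaks are all away from starts.

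Nup210, a transmembrane nucleoporin whose large domain lies between the nuclear membranes, held the largest difference. Its peak at 6:91075995-91076694, centred 40481 bp into the gene, had 25.5, 29.8, 39.4, 22.3 and 13.7 CPM in aged Ri libraries, 32.9, 22.3, 38.3, 21.2 and 23.2 CPM in aged libraries and 5.77, 6.18, 8.52 and 4.35 CPM in young libraries. All 10 libraries of aged mice lay above all 4 young ones. The peak averaged 43.1 counts per library, with 13, 9, 6 and 9 counts in young libraries 1 to 4. It rose 4.61-fold in aged over young cells (log2 2.20 ± 0.30 SE, edgeR adjusted p = 2.43e-05), and the log2 difference was 2.14, 1.90 and 2.29 in batches 1, 2 and 3. The call held in all 16 alternative fits, those with a library left out included, with adjusted p up to 0.00617.

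A second Nup210 peak (6:91092165-91092864, 24311 bp into the gene) had 27.1, 19.6, 25.5, 13.3 and 15.8 CPM in aged Ri, 23.3, 19.3, 34.6, 20.5 and 16.9 CPM in aged and 9.77, 11.7, 2.84 and 13.5 CPM in young libraries. Aged and young libraries did not overlap. It rose 2.19-fold in aged cells (log2 1.13 ± 0.31 SE, edgeR adjusted p = 0.0235), by 1.08, 2.09 and 0.31 in batches 1 to 3. The peak averaged 37.2 counts per library, with 22, 17, 2 and 28 counts in young libraries 1 to 4. Its call ended without aged 3 (0.137), young 1 (0.130), young 2 (0.0562) or young 3 (0.0791) and with the start share as covariate (0.754).

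The other 7 Nup210 peaks did not pass. The start peak was lower in aged cells (log2 -0.46 ± 0.23 SE, edgeR adjusted p = 0.234). The peak 16003 bp into the gene was uneven, with 13, 7.66, 10.0, 17.3 and 15.4 CPM in aged Ri, 13.6, 9.96, 12.4, 32.8 and 4.90 CPM in aged and 65.7, 28.9, 31.2 and 3.87 CPM in young libraries (log2 -1.16 ± 0.60 SE, edgeR adjusted p = 0.292). Young 1, 2 and 3 were among the highest there and young 4 was the lowest of all 14. Relative to its own start region, the log2 ratio of the peak at 40481 bp was -0.71 ± 1.00 in aged Ri, -0.60 ± 0.86 in aged and -3.15 ± 0.73 in young libraries (SD); this peak was picked for its difference, so the ratio is a description.

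**Figure D3:**
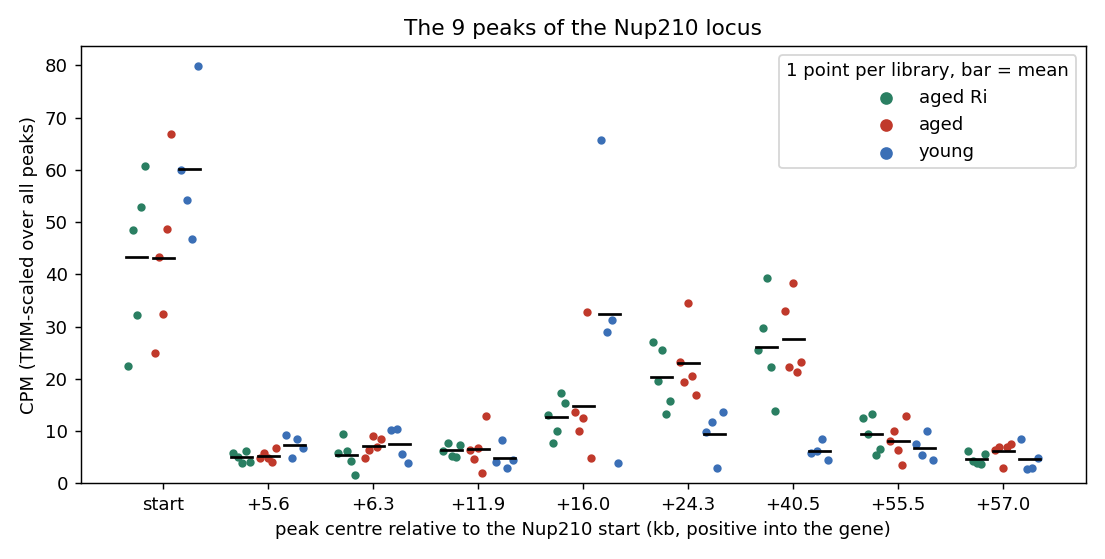
CPM of the 9 peaks at Nup210 by library, ordered by distance of the peak centre from the gene start in kb, with aged Ri, aged and young from left to right and bars at the means. At 40.5 kb the means are 26.1 CPM in aged Ri, 27.6 CPM in aged and 6.21 CPM in young libraries, while at the start they are 43.3, 43.2 and 60.2 CPM.

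Rae1, an mRNA export factor that binds Nup98, rose at a peak 5828 bp into the gene (2:173005596-173006295). It had 10.9, 11.9, 9.68, 8.27 and 4.85 CPM in aged Ri, 12.0, 18.7, 17.3, 17.1 and 4.90 CPM in aged and 3.11, 6.18, 2.84 and 3.87 CPM in young libraries. Of the aged libraries 4 lay above all young ones and aged 5 lay among them. The change was 3.08-fold (log2 1.62 ± 0.35 SE, edgeR adjusted p = 0.00417), and 2.11, 1.91 and 0.31 on the log2 scale in batches 1 to 3. The call ended without young 1 (0.0901) and with the start share as covariate (0.287). The Rae1 start itself was at -0.10 ± 0.16 SE.

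Nup107, a scaffold of the Y complex, fell at a peak 37401 bp into the gene (10:117754954-117755653), the shallowest of the 4 at 14.1 counts per library. It had 5.73, 5.11, 1.94, 5.03 and 6.47 CPM in aged Ri, 4.01, 11.1, 2.26, 8.21 and 3.12 CPM in aged and 24.9, 12.4, 19.9 and 3.39 CPM in young libraries. Young 4 lay among the aged libraries and the other 3 young libraries lay above them. The change was 2.68-fold lower (log2 -1.42 ± 0.43 SE, edgeR adjusted p = 0.0488), and -1.81, -1.72 and -0.10 in batches 1 to 3. The call ended in 9 of the 16 alternative fits. Among these were the fits without any 1 of aged 1, aged 3, aged 5, young 1, young 2 or young 3 (adjusted p 0.0805 to 0.280). It also ended without the batch term (0.112), and with the start share as covariate the value was -0.89 (0.781).

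**Figure D4:**
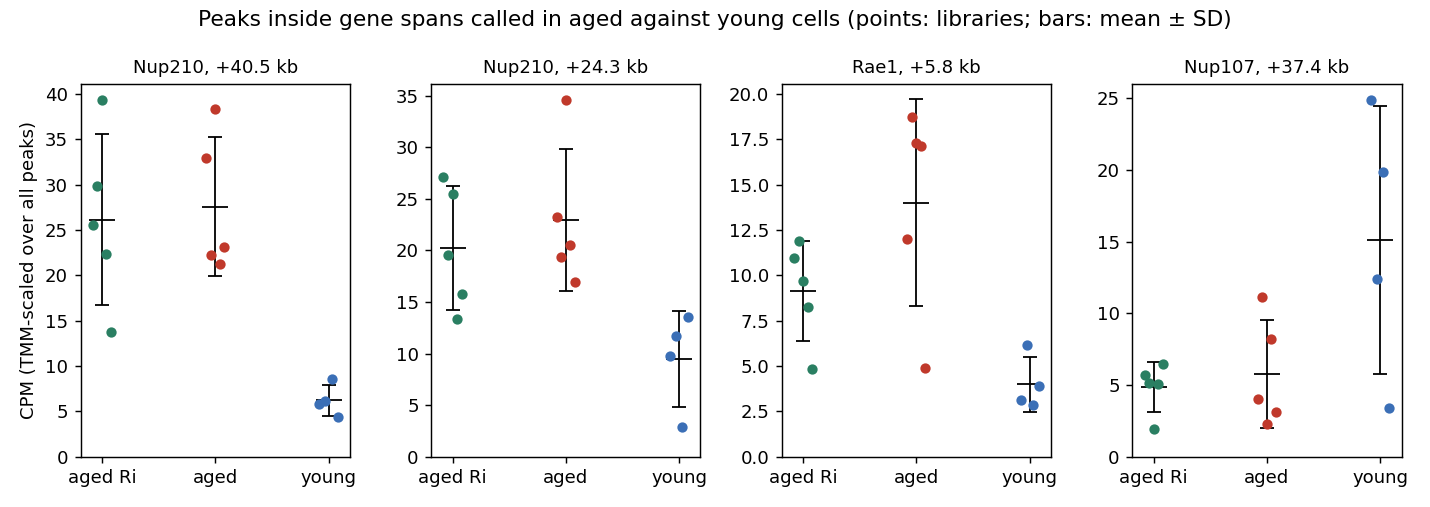
CPM of the 4 peaks called in aged against young cells, by library, with aged Ri, aged and young from left to right; bars are means ± SD. At 40.5 kb of Nup210 the means are 27.6 CPM in aged and 6.21 CPM in young libraries; at Nup107 they are 5.75 CPM in aged and 15.1 CPM in young libraries, with young 4 among the aged ones.

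Gle1, which activates the helicase that releases mRNA at the cytoplasmic face, was the only 1 of the 31 start peaks (3.23%) whose aged and young libraries did not overlap, against 4.83% of all start peaks. It had 21.9, 26.4, 18.4, 33.1 and 30.3 CPM in aged Ri, 23.3, 22.3, 25.2, 21.9 and 31.2 CPM in aged and 39.5, 44.7, 32.7 and 32.9 CPM in young libraries. The difference of -0.59 ± 0.22 SE did not pass (edgeR adjusted p = 0.109). Without young 4 it did, at -0.74 (0.0424), where 11.5% of all peaks were called. The Ran start peak was at -0.71 ± 0.25 SE (edgeR adjusted p = 0.0817). It passed in 3 of the 16 alternative fits. Among these were the fits without aged 5 (-0.99, 0.0157) and without young 4 (-0.84, 0.0417), where 8.29% and 11.5% of all peaks were called.

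Aged Ri against aged cells asked what RhoA inhibition changes in aged cells. None of the 54 peaks was called, against 0.446% of all peaks. An unadjusted p under 0.05 was found at 3 (5.56%, against 10.2% of all peaks). DESeq2 called 0, against 0.462% of all peaks. None of the 30 starts was called either, against 0.179% of all starts, with 1 (3.33%, against 6.34% of all starts) at an unadjusted p under 0.05. At starts DESeq2 called 0, against 0.134% of all starts. Start values had a median of -0.04 against -0.00 over all starts, and ran from -0.53 at Ndc1 to 0.21 at Aaas. All 30 approximate 95% intervals lay within a 2-fold change, the widest reaching -0.83 at Ndc1 and 0.56 at Aaas. Peaks away from starts had a median of -0.18 with 20 of 23 below 0, against -0.04 and 23177 of 43017 for all such peaks. Start peaks had a median of -0.02 with 18 of 31 below 0, against 0.01 and 6464 of 13218 for all start peaks.

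After Ndc1, the lowest p-values at starts were at Nup188 (-0.30 ± 0.23 SE, edgeR adjusted p = 0.933), Aaas, the membrane-side partner of Ndc1 (0.21 ± 0.18 SE, 0.948), and Nup153, a basket protein that binds importins (0.18 ± 0.17 SE, 0.953). Nup35 (-0.16 ± 0.19 SE, 0.968) and Nup107 (0.13 ± 0.18 SE, 0.977) followed. Among peaks, a Nup93 peak and the Rae1 peak are described below. The Ndc1 start peak was at -0.51 ± 0.21 SE (edgeR adjusted p = 0.352), a Nup214 peak 63079 bp into the gene at -0.52 ± 0.30 SE (0.595), a Nup210 peak 6277 bp into the gene at -0.58 ± 0.34 SE (0.605) and a Nup93 peak 48336 bp into the gene at -0.58 ± 0.34 SE (0.609). These 4 did not pass the threshold.

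Aged Ri and aged libraries of the same replicate number deviated together, so a fit with the number as a block was compared. The pairing is not certain, since aged Ri 4 was slightly closer to aged 5 (correlation of deviations 0.294) than to aged 4 (0.276). Ndc1, a transmembrane nucleoporin that anchors the pore, had 53.2, 68.2, 55.5, 61.5 and 47.6 CPM at its start in aged Ri libraries 1 to 5 and 77.9, 80.3, 89.2, 98.9 and 65.3 CPM in aged libraries 1 to 5. It was lower in 5 of 5 pairs, although the groups overlapped through aged Ri 2 and aged 5. Ndc1 was picked as the member start with the lowest p-value here, so the pair count is a description. The value was -0.53 ± 0.15 SE without the block (edgeR adjusted p = 0.214) and -0.55 ± 0.14 SE with it (0.0221), 1.46-fold lower, where 0.243% of all starts were called lower. Young libraries had 58.2, 58.0, 81.5 and 78.0 CPM there.

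The peak 81474 bp into Nup93, which links the inner ring to the channel (8:94295689-94296388), had 7.81, 4.26, 1.61, 3.60 and 1.21 CPM in aged Ri libraries and 10.4, 11.1, 7.52, 8.21 and 4.90 CPM in aged libraries. It was lower in 5 of 5 pairs, at 10.9 counts per library, and the groups overlapped. This peak too was picked for its low p-value, so the pair count is a description. The value was -1.25 ± 0.33 SE without the block (edgeR adjusted p = 0.0790) and -1.29 ± 0.33 SE with it (0.00942), where 1.53% of all peaks were called lower. Without the block it also passed when aged Ri 1 was left out (-1.58, 0.0440).

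**Figure D5:**
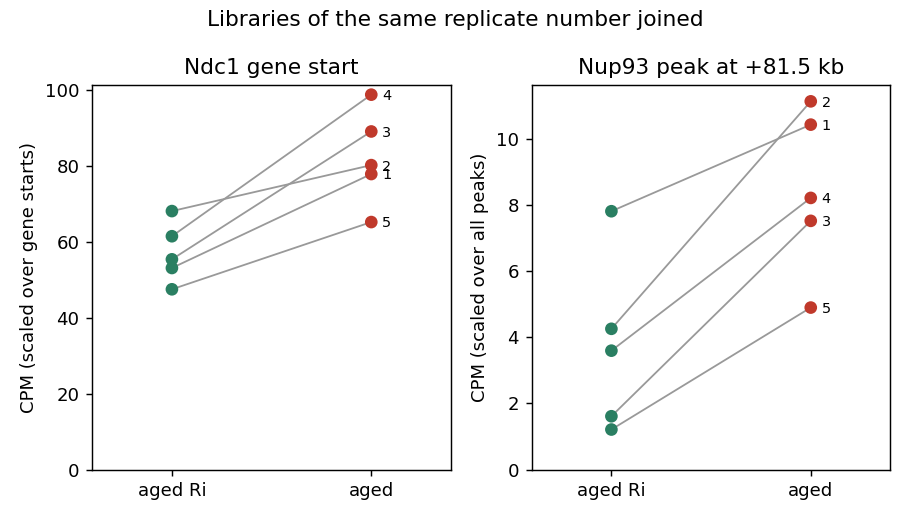
CPM at the Ndc1 start and at the Nup93 peak in aged Ri (left) and aged (right) libraries, lines joining libraries of the same number. All 5 aged Ri libraries lie below the aged library of their number in both panels, which were picked for their low p-values.

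At the peaks called in aged against young cells, values for aged Ri over aged were as follows. The Nup210 peaks at 40481 and 24311 bp were at -0.13 ± 0.22 SE and -0.20 ± 0.25 SE (edgeR adjusted p = 0.936 and 0.893), and the Nup107 peak at -0.12 ± 0.45 SE (0.977). The Rae1 peak was at -0.61 ± 0.27 SE (0.420). The 3 comparisons share libraries, so their values are set side by side and not correlated.

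Aged Ri against young cells gave 5 called peaks of 54 (9.26%), against 11.5% of all peaks, 2 higher (3.70% and 7.9%) and 3 lower (5.56% and 3.56%). Called starts were 0 of 30 against 5.31% of all starts, with 2 (6.67%, against 21.4% of all starts) at an unadjusted p under 0.05. At starts DESeq2 called 0, against 3.9% of all starts. All 31 start peaks were below 0, as were 9649 of 13218 over all start peaks, with a median of -0.39 against -0.23. Counts of called peaks were 2, 9 and 1 without aged Ri 1, 2 and 3, where 8.21, 11.9 and 5.31% of all peaks were called. They were 2, 3, 1 and 9 without young 1, 2, 3 and 4, where 6.80, 7.06, 7.10 and 16.3% were. In each of these fits the share of all peaks called moved in the same direction as the member count.

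The Nup210 peak at 40481 bp rose 4.22-fold (log2 2.08 ± 0.30 SE, edgeR adjusted p = 2.67e-05). The one at 24311 bp was 1.91-fold higher (0.94 ± 0.31 SE, 0.0423), and its call ended without any 1 of aged Ri 1, aged Ri 2, aged Ri 3, young 1, young 2 or young 3 (0.0527 to 0.141). It also ended without the batch term (0.0548), with loess offsets (0.0674), with the replicate block (0.0914) and with the start share as covariate, at 0.27 (0.830). The Rae1 peak was 2.01-fold higher (1.01 ± 0.36 SE) but missed the threshold (0.0619). It passed without aged Ri 4 (0.0431) and without young 4 (0.0184), where 14.3% and 16.3% of all peaks were called. It also passed with the replicate block (0.0418, all peaks 6.92%), although numbers do not pair these groups. The Nup107 peak was 2.92-fold lower (-1.55 ± 0.43 SE, 0.0195), a call that ended without aged Ri 1, aged Ri 3, young 1, young 2 or young 3 (0.0512 to 0.122), with the replicate block (0.0610) and with the start share as covariate (-1.02, 0.557).

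The other called peaks lay at the starts of Ran and Nup188. Nup188, a large inner ring scaffold, had 12.0, 12.8, 8.72, 25.9 and 33.2 CPM at its start peak in aged Ri, 21.7, 14.6, 14.3, 22.6 and 43.2 CPM in aged and 23.5, 35.0, 59.6 and 42.6 CPM in young libraries. Aged Ri 1, 2 and 3 lay below every young library. It fell by 1.02 ± 0.28 SE on the log2 scale in aged Ri over young cells (edgeR adjusted p = 0.0181), 2.03-fold lower, and its call ended without aged Ri 3 (0.0809), young 3 (0.0825) or the batch term (0.0907). With the start share as covariate it was -0.36 (0.722). The Ran start peak fell by 0.75 ± 0.25 SE (0.0433); its call ended without any 1 of aged Ri 1, aged Ri 3, aged Ri 5, young 1 or young 3 (0.10 to 0.176) and without the batch term (0.120), and with the start share as covariate the value was 0.00 (0.999). Both genes were near the threshold when their starts were scaled over start counts (Nup188 -0.74 ± 0.24 SE, edgeR adjusted p = 0.0615; Ran -0.51 ± 0.17 SE, 0.0655). Next at the starts were Nup54, a subunit of the central channel (-0.26 ± 0.13 SE, 0.248), Nup133 (-0.47 ± 0.25 SE, 0.275), Kpnb1 (-0.29 ± 0.16 SE, 0.277) and Nup107 (-0.32 ± 0.18 SE, 0.322). Start calls appeared without aged Ri 2 (Kpnb1 and Ran), without aged Ri 4 and without young 4 (Nup188 and Ran in both). In these fits 8.25, 9.40 and 7.40% of all starts were called.

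Pore-associated and transport genes outside the 31 gave 0 calls by edgeR in all 3 comparisons. Among all starts 2.13% were called in aged against young, 0.179% in aged Ri against aged and 5.31% in aged Ri against young. Of 14 further symbols of nucleoporins and pore-associated genes 11 were tested, with Nup58 and Nup42 entered under their older names Nupl1 and Nupl2. In aged over young cells their median was -0.03, and 1 (9.09%, against 17.2% of all starts) had an unadjusted p under 0.05, Tmem209 (-0.34 ± 0.16 SE, edgeR adjusted p = 0.239). Of 29 importins, exportins and Ran cycle genes 26 were tested; 22 of 26 (84.6%, against 50.8% of all starts) were below 0 in aged over young cells with a median of -0.18, against -0.01 over all starts. Of them 4 (15.4%, against 17.2% of all starts) had an unadjusted p under 0.05. The lowest was Xpo6, the exportin of actin (-0.47 ± 0.15 SE, 0.0846), followed by Tnpo1 (-0.44 ± 0.20 SE, 0.234) and Ipo5 (-0.32 ± 0.15 SE, 0.265), both import receptors. In aged Ri over aged cells Tmem209 was at 0.33 ± 0.15 SE (0.687), Tor1aip1 at -0.24 ± 0.12 SE (0.814) and Nup62, a channel nucleoporin, at -0.21 ± 0.15 SE (0.914). In aged Ri over aged cells the transport list had a median of 0.03, with Ipo4 at 0.35 ± 0.18 SE (0.792). In aged Ri over young cells its median was -0.18, with Tnpo3, an import receptor of splicing factors, at -0.43 ± 0.16 SE (0.0974).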

How the data were processed

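Bulk ATAC-seq counts were taken for all 14 libraries. The authors deposited raw counts per consensus peak on mm10, 700 bp each; the tools used were featureCounts, R 4.2.0 and SAMtools 1.14, per the submitters' processing notes. The aligner, peak caller, duplicate handling and Tn5 shift are not given in the sources used here. Counting error is larger at the shallow peaks, and intervals cover the spread between libraries.

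Counts were tested with R 4.3.3 and edgeR 4.0.16 (filterByExpr, TMM, robust quasi-likelihood, group plus sequencing batch, all 14 libraries), with Benjamini-Hochberg adjustment over all features and a threshold of 0.05. Peaks (56235 tested) were scaled over all peaks. Gene starts (13399 tested) were sums of peaks within 1 kb of the RefSeq start, scaled over those sums; all 54 member peaks and 30 starts passed the filter. The test was checked on simulated data. Aged Ri and aged libraries were paired by replicate number (correlations of deviations 0.365, 0.137, 0.645, 0.276 and 0.544 over 25903 peaks). Across numbers, aged Ri 4 with aged 5 was at 0.294 and aged Ri 1 with aged 2 at 0.343, so the pairing is not certain. Alternatives used DESeq2 1.42.0, other scalings, filters and windows, and left-out libraries. Figures used matplotlib 3.10.9 in Python 3.11.15. Members with a called peak or start, the 6 lowest p-values per comparison and level, the 3 highest and 3 lowest levels and the top list genes were named by rule. The members and lists were chosen with earlier results of these data known. 1 marker gene is not reported here.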

Additional observations from a re-analysis of the deposited data

Results flagged for a closer look

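In 69 groups of 4 or 5 libraries, 2 held a library far from the others by Dixon's test, where chance flags about 1 in 20 groups. At the Nup188 start peak, aged 5 had 43.2 CPM, against 14.3 to 22.6 CPM in the other aged libraries. At the Gle1 start, aged 4 had 42.2 CPM, against 50.2 to 53.3 CPM in the other aged libraries.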

How the results depend on the processing

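Called member peaks numbered 4 in aged against young, 0 in aged Ri against aged and 5 in aged Ri against young, where 5.72, 0.446 and 11.5% of all peaks were called. The share of counts at gene starts was used as a covariate, chosen after seeing the data. They were then 1 in aged against young (all peaks 0.267%) and 1 in aged Ri against young (1.03%). That share goes with age, so this fit cannot tell the share and age apart. Without the batch term, they were 2 in aged Ri against young (7.48%). With the replicate block, they were 12 in aged against young (8.62%) and 1 in aged Ri against aged (4.42%). Leaving out 1 library gave 1 to 8 (1.41 to 11.5% of all peaks), 0 to 1 (0.0246 to 0.945%) and 1 to 9 (5.31 to 16.3%).

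Called member starts numbered 0 in each comparison, where 2.13, 0.179 and 5.31% of all starts were called. The replicate block gave 2 in aged against young (all starts 7.13%), 1 in aged Ri against aged (0.971%) and 2 in aged Ri against young (4.73%); loess offsets gave 1 (5.99%) and scaling over all peaks 2 (5.68%) in aged Ri against young. Leaving out 1 library gave 0 to 3 in aged against young (0.322 to 5.29% of all starts), 0 in aged Ri against aged (0 to 0.241%) and 0 to 2 in aged Ri against young (1.67 to 9.40%). Numbers do not pair aged or aged Ri with young libraries, since their same-number correlations ran down to -0.278 and aged 3 correlated best with young 2 (0.395), so those block counts are no pairing result. Median start values were 0.14 and 0.11 with the start-share covariate, and -0.39 and -0.39 with scaling over all peaks, in aged against young and aged Ri against young.

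With that covariate the log2 value turned round at the Ran peak (0.0391 in aged against young, 0.00123 in aged Ri against young), the Nup107 start (0.0407 and 0.177), the Nup133 start (0.143 and 0.219), the Ran start (0.0396 in aged against young) and the Kpnb1 start (0.0844 in aged Ri against young). The Nup107 start in aged Ri against aged was -0.0403 without aged Ri 2, the lowest of its left-out values, and 0.329 without aged 5, the highest. The cause was not tested. Single peaks away from starts, at a median of 13.5 counts, are limited by depth.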
